A study of Mus musculus with 4 samples.

Results

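RNA-binding proteins that steer cell-type-specific splicing were followed in mouse ESCs through the genes Rbfox2, Esrp1, Esrp2, Mbnl1, Mbnl2, Mbnl3, Qk, Ptbp1, Ptbp2 and Khdrbs3. They were taken by gene symbol from the Illumina TruSeq gene counts, where all 10 had a count in every library, out of 24421 symbols in the count files. R1, an established mouse ESC line, was compared in 2 states with 2 biological replicates each. Undiff is undifferentiated R1 culture, which the methods describe as ESCs kept with leukaemia inhibitory factor (LIF) and the labels as embryoid bodies. Day4 is embryoid bodies given retinoic acid (RA) for 4 days after culture without LIF, at 2 µM according to the methods and the series design and at 2 mM according to the sample labels. Effects of RA, of LIF withdrawal and of time in culture cannot be told apart in these groups. Nor can that of embryoid body formation, which the methods describe for Day4 only. All libraries come from a single cell line.

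These proteins bind short motifs in pre-mRNA and favour inclusion or skipping of nearby exons, often depending on whether they sit upstream or downstream of the exon. The ESRP proteins are known for epithelial splicing patterns, the MBNL proteins for the switch from embryonic towards adult or differentiated patterns, and PTBP1 for keeping neuronal exons skipped in non-neuronal cells. RBFOX2, QK and KHDRBS3 act in many tissues, with well-known roles in mesenchymal and muscle cells for the first 2 and in brain for the last. The counts used here are per gene, so they give how much RNA of each regulator was present and not which exons were spliced.

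Each library held from 32099074 to 47730944 gene counts, and the members together took between 0.108% and 0.109% of them in Undiff and 0.157% and 0.159% in Day4. In Day4 all 10 markers of a list for ESCs fell, Pou5f1 from 31358 and 31984 normalized counts to 142 and 131 and Nanog from 8417 and 9053 to 115 and 90.6. The summed level of the list dropped from between 4901 and 4904 CPM to between 21.5 and 27.4 CPM. For summed levels of lists, CPM are counts relative to the total of gene counts in the library, without TMM scaling. Of 8 fibroblast markers, 6 rose and 2 (S100a4 and Thy1) fell, with a summed level between 60.4 and 65.3 CPM in Undiff and between 1554 and 1712 CPM in Day4. Each of these ESC and fibroblast markers passed the thresholds given below, as did 22.2% of all genes tested upwards and 20.6% downwards. Col3a1 alone held most of the fibroblast sum in Day4, and went from 77.1 and 57.4 to 40193 and 36401 normalized counts. Like Col1a1, it is also in the mesenchymal list used below. In these bulk samples, fewer cells of a type and less RNA per cell cannot be told apart.

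Several of the regulators carry exons that the same protein families control, and 2 such pairs are shown because the balance between these paralogues is compared here. The letters are those of the GENCODE transcripts. A coding exon of 34 bases is present in both Ptbp1 (chr10:79862014-79862047, plus strand) and Ptbp2 (chr3:119724612-119724645, minus strand) of GRCm38. As 34 is not a multiple of 3, skipping it shifts the reading frame, and PTBP proteins are known to promote this skipping, which sends the mRNA to decay. The exon is in 3 of the 5 coding transcripts that span it in each gene, and 26 of its bases (76.5%) are shared, which are printed in capitals.
Ptbp1: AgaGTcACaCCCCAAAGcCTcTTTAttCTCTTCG
Ptbp2: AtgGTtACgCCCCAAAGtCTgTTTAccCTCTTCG

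A coding exon of 54 bases is likewise present in Mbnl1 (chr3:60614683-60614736, plus strand) and Mbnl2 (chr14:120395712-120395765, plus strand), and it belongs to an alternative region that is known to favour nuclear localization and to be skipped under control of the MBNL proteins themselves. It keeps the reading frame, and 46 of its bases (85.2%) are shared, in capitals. It is in 4 of 10 spanning coding transcripts of Mbnl1 and 3 of 6 of Mbnl2.
Mbnl1: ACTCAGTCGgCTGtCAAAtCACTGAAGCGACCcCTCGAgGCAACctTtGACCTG
Mbnl2: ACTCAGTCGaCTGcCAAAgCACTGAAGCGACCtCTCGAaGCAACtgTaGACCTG

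Of the 10 regulators, 5 were differentially expressed genes (DEGs) between the states. DEGs were called with the thresholds of the study, which are 0.05 for the adjusted p, a log2 fold change of 1 or more in either direction, and 5 for the mean normalized count. Mbnl1, Ptbp2 and Rbfox2 were DEGs higher in Day4, 3 of the 10, beside 22.2% of all 19891 genes tested. Esrp1 and Esrp2 were DEGs lower in Day4, beside 20.6% of all genes. Without the minimum fold change, 6 of the 10 passed upwards, beside 36.9% of all genes, since Mbnl2, Qk and Mbnl3 joined, and 3 passed downwards, beside 35.5%, since Khdrbs3 joined. Ptbp1 passed in neither direction. The median log2 fold change was 0.92 over the members and -0.03 over all genes tested. Undiff and Day4 libraries did not overlap for any member, Ptbp1 included, which was also true for 85.4% of all genes.

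**Figure D1:**
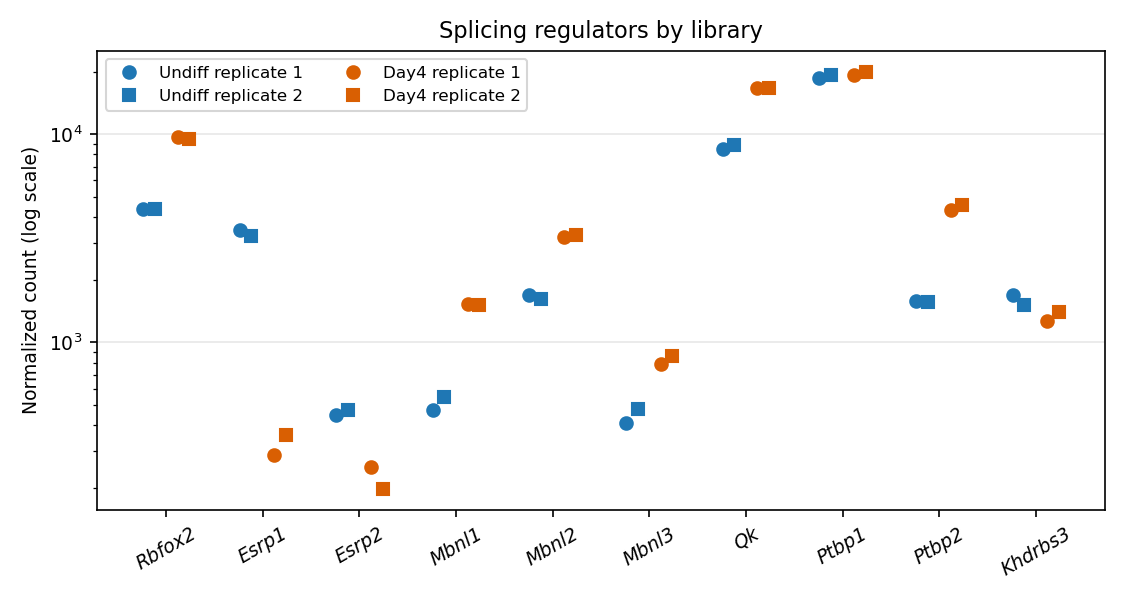
Normalized counts (log scale) of the 10 splicing regulators in each library, with Undiff in blue, Day4 in orange, circles for replicate 1 and squares for replicate 2. Esrp1 drops from between 3258 and 3450 to between 289 and 360, whereas Ptbp1 stays between 18562 and 20013.

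The epithelial regulators fell. Esrp1 (chromosome 4, 11331933 to 11386783, minus strand), which promotes epithelial exons in genes such as Fgfr2 and Cd44, had 3450 and 3258 normalized counts in Undiff and 289 and 360 in Day4. Both Day4 libraries lay far below both Undiff libraries. This 10.2-fold fall, -3.35 on the log2 scale (standard error 0.07, adjusted p = 2.5e-24), was the strongest change of the 10 in either direction.

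Esrp2 (chromosome 8, 106130319 to 106136974, minus strand), its paralogue with an overlapping function, had 450 and 471 normalized counts in Undiff and 252 and 198 in Day4. The states did not overlap, but the Day4 replicates differed from each other more than the Undiff replicates. On the log2 scale its change of -1.05 (standard error 0.11, adjusted p = 1.5e-09) is close to the minimum of 1. It was -0.98 with library totals in place of TMM scaling and -0.90 without Day4 replicate 2, and then Esrp2 was not a DEG. Exons of Esrp2 share 219 bases (5.05% of its exon length) with Nfatc3 and 119 bases (2.74%) with 1810019D21Rik, both on the opposite strand. The count of Esrp2 is uncertain for that reason if strand was not used in counting.

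The fall of the Esrp genes went with that of epithelial markers. Of 12 epithelial markers, 9 were DEGs lower in Day4, 1 (Krt19) was a DEG higher, and Krt8 and Krt18 were not DEGs. Over all genes tested, 20.6% were DEGs lower and 22.2% higher. The summed level of the list was between 2123 and 2180 CPM in Undiff and between 456 and 485 CPM in Day4. Cdh1, which encodes E-cadherin, had 44287 and 45013 normalized counts in Undiff and 760 and 1059 in Day4. Esrp1, Cdh1 and all other epithelial markers of the list were higher in Day4 replicate 2 than in replicate 1, to differing extents. For example, Epcam had 1017 normalized counts in replicate 1 and 1224 in replicate 2, and Krt8 had 4047 and 4085. Esrp2 was lower in Day4 replicate 2. This rests on a single pair of libraries. Of 12 mesenchymal markers, 1 (Fn1) was a DEG lower in Day4 and 11 were DEGs higher, Zeb1 among them, which encodes a known repressor of epithelial genes and rose from 265 and 319 to 3953 and 4047 normalized counts. The part of the epithelial or mesenchymal cell content in the change of the Esrp genes was not tested.

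All 3 Mbnl genes passed the test upwards. Mbnl1 (chromosome 3, 60472830 to 60629750, plus strand), which represses ESC-specific exons such as one in Foxp1, had 474 and 548 normalized counts in Undiff and 1530 and 1519 in Day4. The Day4 replicates were nearly identical and stood far above Undiff. The mean went from 511 ± 52.2 to 1524 ± 8.28 (SD, n = 2 each), a 2.99-fold rise and 1.58 on the log2 scale (standard error 0.08, adjusted p = 7.1e-17).

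Mbnl2 (chromosome 14, 120275669 to 120431697, plus strand), best known for its role in brain, had 1693 and 1621 normalized counts in Undiff and 3201 and 3288 in Day4. Its 1.96-fold rise (log2 fold change 0.97, standard error 0.06, adjusted p = 3.9e-15) passed the test and ended just under the minimum fold change. Mbnl3 (chromosome X, 51117269 to 51206532, minus strand), a paralogue linked to undifferentiated muscle precursors, had 412 and 481 normalized counts in Undiff and 791 and 861 in Day4. It rose 1.86-fold (log2 fold change 0.89, standard error 0.09, adjusted p = 1.1e-09). For both genes the states did not overlap. Muscle markers, from a tissue in which MBNL proteins are best known, moved both ways. Of 10, 4 (Tnni1, Tnnt2, Acta2 and Actc1) were DEGs higher in Day4 and 3 (Myh6, Ttn and Myh7) were DEGs lower, beside 22.2% and 20.6% of all genes. The summed level of the muscle list was between 54.7 and 58.7 CPM in Undiff and between 123 and 152 CPM in Day4. Without Acta2, left out after its values were seen, a smooth muscle gene that went from 682 and 538 to 3093 and 4068 normalized counts, the sum was between 40.7 and 40.9 CPM in Undiff and between 38.1 and 40.6 CPM in Day4. Their part in the rise of the Mbnl genes was not tested.

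Qk and Rbfox2 rose to similar extents from high levels. Qk (chromosome 17, 10202601 to 10319854, minus strand), which encodes the STAR-family protein Quaking, had 8499 and 8839 normalized counts in Undiff and 16740 and 16630 in Day4. Both Day4 libraries held clearly more than any Undiff library, and the log2 fold change was 0.94 (standard error 0.04, adjusted p = 6.0e-16), under the minimum of 1. Rbfox2 (chromosome 15, 77078990 to 77307004, minus strand), the widely expressed member of the RBFOX family, had 4369 and 4386 in Undiff and 9663 and 9500 in Day4. The replicates of each state lay close together, and the rise was 2.19-fold or 1.13 on the log2 scale (standard error 0.05, adjusted p = 4.5e-18).

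The PTBP paralogues did not move together. Ptbp1 (chromosome 10, 79854427 to 79864771, plus strand), the repressor of neuronal exons, had 18562 and 19230 normalized counts in Undiff and 19293 and 20013 in Day4. Both Day4 libraries lay just above both Undiff libraries, but the change of 0.06 on the log2 scale (standard error 0.04, adjusted p = 0.63) did not pass the test. Its adjusted p was between 0.0042, with library totals, and 1.00 over 11 alternatives, of which 1 passed, and the log2 fold change was -0.00013 without Day4 replicate 2. Exons of Ptbp1 share 295 bases (6.22% of its exon length) with E130317F20Rik, 251 bases (5.3%) with the protein-coding Plppr3 and 437 bases (9.22%) with Gm17134, all on the opposite strand, which makes its count uncertain if strand was not used in counting. Of these, E130317F20Rik is a gene of the count files used here.

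Ptbp2 (chromosome 3, 119718742 to 119784466, minus strand), the neural paralogue of PTBP1, had 1587 and 1567 normalized counts in Undiff and 4311 and 4596 in Day4. Both Day4 libraries stood well above both Undiff libraries. The mean went from 1577 ± 13.9 to 4453 ± 201 (SD, n = 2 each), a 2.83-fold rise and 1.50 on the log2 scale (standard error 0.05, adjusted p = 1.8e-19). Whether the 34-base exon printed above was included more often cannot be read from gene counts.

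Markers of neurons, in which Ptbp2 is best known, moved both ways. Of 10, 4 were DEGs higher in Day4 (Dcx, Isl1 and Syt1 among them) and 5 were DEGs lower (Neurod1, Tubb3, Stmn2, Snap25 and Gap43), while Map2 was not a DEG. Over all genes tested, 22.2% were DEGs higher and 20.6% lower. The summed level of the 10 markers was between 304 and 309 CPM in Undiff and between 90.9 and 91.7 CPM in Day4. These values stand beside the rise of Ptbp2, and their part in it was not tested.

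Khdrbs3 (chromosome 15, 68928420 to 69101211, plus strand), a STAR-family protein that regulates neurexin exons in brain, was the only member outside the Esrp family that fell. It had 1686 and 1521 normalized counts in Undiff and 1271 and 1400 in Day4. The states were close, without overlap, and the change was -0.26 on the log2 scale (standard error 0.06, adjusted p = 1.9e-04). This 1.20-fold fall is far under the minimum for a DEG.

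**Figure D2:**
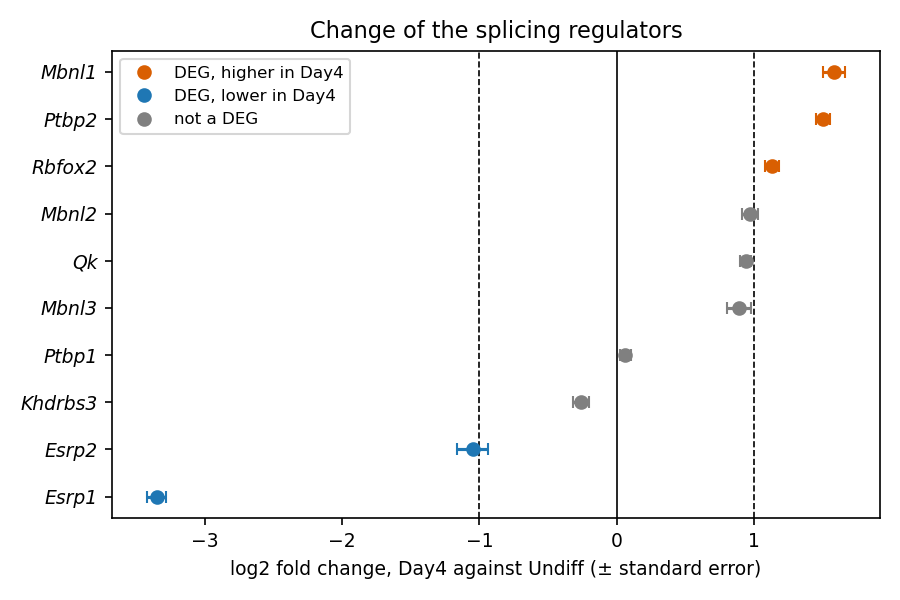
Log2 fold change of Day4 against Undiff for each regulator, with bars of 1 standard error from edgeR, and dashed lines at the minimum of 1 in either direction. Mbnl1, Ptbp2 and Rbfox2 lie beyond the right line, Mbnl2, Qk and Mbnl3 just inside it, and Esrp1 lies at -3.35.

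The balance within each family was compared by the ratio of counts of paralogues in the same library, in which the scaling of the library cancels. In Undiff, Ptbp1 had 11.7 and 12.3 times the counts of Ptbp2, and in Day4 it had 4.48 and 4.35 times. Per kilobase of annotated exon the excess was 22.6 and 23.7 times in Undiff and 8.66 and 8.43 times in Day4, so that Ptbp1 stayed the more abundant RNA. The log2 ratio of Ptbp2 to Ptbp1 moved from -3.58 ± 0.05 to -2.14 ± 0.03 (SD, n = 2 each), a change of 1.44. Counts of Esrp2 were 0.130 and 0.145 times those of Esrp1 in Undiff and 0.870 and 0.550 times in Day4, so that the log2 ratio changed by 2.33, with a wide gap between the Day4 replicates. Both ratios moved towards the paralogue that was scarcer in Undiff.

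Within the Mbnl family the balance moved towards Mbnl1. Counts of Mbnl2 were 3.57 and 2.96 times those of Mbnl1 in Undiff and 2.09 and 2.17 times in Day4, a change of the log2 ratio of -0.61. The count ratio of Mbnl3 to Mbnl1 went from 0.868 and 0.878 to 0.517 and 0.567, a change of the log2 ratio of -0.69. Per kilobase of annotated exon, Mbnl3 had 1.86 and 1.88 times the level of Mbnl1 in Undiff and 1.11 and 1.21 times in Day4. Per kilobase of coding length, Mbnl1 (31.1) stood above Mbnl3 (19.9) in Day4. In all 4 pairs the states did not overlap, with p = 0.333 for each in a two-sided exact permutation test, before and after adjustment over the 4 pairs, which is the smallest value that 2 libraries against 2 allow.

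**Figure D3:**
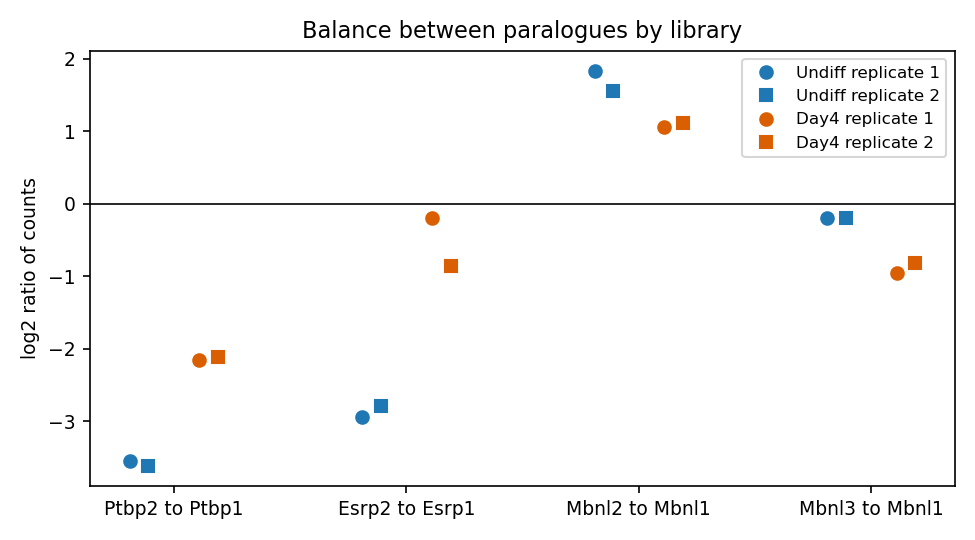
Log2 ratio of the counts of paralogues in each library, with Undiff in blue, Day4 in orange, circles for replicate 1 and squares for replicate 2. Ptbp2 to Ptbp1 and Esrp2 to Esrp1 move up from Undiff to Day4, by 1.44 and 2.33, and both Mbnl ratios move down.

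Levels of different genes were compared as TMM-scaled CPM per kilobase of annotated exon. On this scale Ptbp1 was the highest in both states, at 106 ± 2.67 before and 111 ± 2.87 after differentiation (SD, n = 2 each). In Undiff it was followed by Qk (16.3 ± 0.450), Rbfox2 (14.4 ± 0.0394), Esrp1 (14.2 ± 0.576) and Khdrbs3 (11.7 ± 0.853), with Rbfox2 and Esrp1 not apart by more than their spread. Ptbp2 (4.59), Mbnl2 (3.69), Esrp2 (2.84), Mbnl3 (1.36) and Mbnl1 (0.729) were lower.

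In Day4, Rbfox2 (31.4 ± 0.377) and Qk (31.3 ± 0.146) came next after Ptbp1 and did not differ beyond their spread. Ptbp2 reached 13.0 ± 0.586 and Khdrbs3 had 9.74 ± 0.662. Esrp1 was at 1.38 ± 0.212 and Esrp2 at 1.38 ± 0.234, the lowest levels of the 10. Exon length here is the union over all annotated transcripts, untranslated ends included, and the order depends on it. With coding length in its place, Qk (410 ± 1.91) stood above Ptbp1 (287 ± 7.43) in Day4, while Ptbp1 (276) stayed above Qk (213) in Undiff.

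For Mbnl2, Mbnl3, Qk and Esrp2 the DEG call depended on the scaling, on a single library or on the form of the test. With library totals, Mbnl2 (1.04) and Qk (1.01) were DEGs higher in Day4 and Esrp2 was not a DEG. Esrp2 was also no DEG in a test against a fold change of 2 (adjusted p = 0.29). Without Undiff replicate 1, Mbnl2 (1.00) was a DEG, and without Undiff replicate 2, Mbnl3 (1.01) was. Mbnl1, Ptbp2, Rbfox2 and Esrp1 were DEGs under each of the 12 alternatives. Mbnl1 ranged between 1.48 and 1.68 over them, Ptbp2 between 1.42 and 1.56, Rbfox2 between 1.09 and 1.20, and Esrp1 between -3.57 and -3.22.

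**Figure D4:**
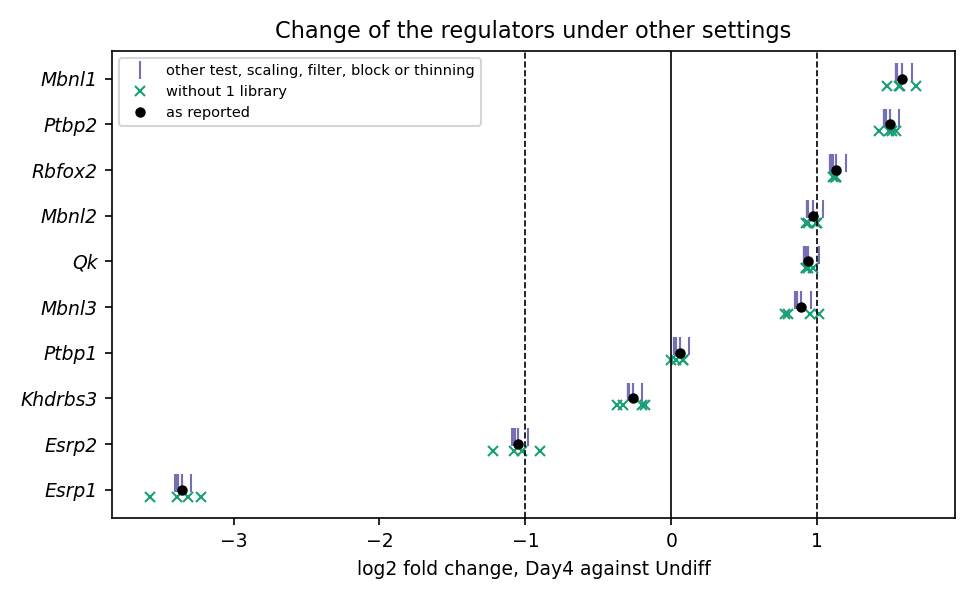
Log2 fold change of each regulator as reported (black), under other tests, scalings, filters, a replicate block or thinning (purple), and without 1 library (green crosses). The values of Mbnl2, Qk, Mbnl3 and Esrp2 gather at the dashed lines of the minimum fold change, those of Mbnl1, Ptbp2, Rbfox2 and Esrp1 lie beyond them, and those of Ptbp1 and Khdrbs3 lie well inside.

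Start-site sequences were matched by symbol for 6 of the members, in 7 windows from 250 bases before to 50 after a start in the RefSeq annotation of GRCm38.p6. The windows of Ptbp1 and Ptbp2 are shown because these paralogues responded differently. That of Ptbp1 (chr10:79854182-79854481, plus strand) has 58.3% G and C and 22 CpG, and that of Ptbp2 (chr3:119783339-119783638, minus strand) has 74.7% and 36 CpG, beside a median of 52.7% and 7 over 32851 windows. Capitals mark AGGTCA, the half-site of nuclear receptors such as those for RA, and GGGCGG, the GC box, on either strand, where overlapping copies of the GC box run together.
Ptbp1: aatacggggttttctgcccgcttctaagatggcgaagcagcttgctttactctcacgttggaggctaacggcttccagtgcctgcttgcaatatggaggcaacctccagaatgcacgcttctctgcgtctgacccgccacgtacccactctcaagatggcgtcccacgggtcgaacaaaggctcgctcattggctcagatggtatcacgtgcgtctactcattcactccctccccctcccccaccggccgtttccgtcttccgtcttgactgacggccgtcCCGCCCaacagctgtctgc
Ptbp2: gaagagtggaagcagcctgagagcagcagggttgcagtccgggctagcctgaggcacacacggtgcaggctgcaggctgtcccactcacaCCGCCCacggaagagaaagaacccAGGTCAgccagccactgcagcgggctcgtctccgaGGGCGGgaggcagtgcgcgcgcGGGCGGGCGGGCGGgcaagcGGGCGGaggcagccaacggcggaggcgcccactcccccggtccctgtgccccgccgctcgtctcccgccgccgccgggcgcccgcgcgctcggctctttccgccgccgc

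The window of Ptbp2 held AGGTCA once, the only one of the 7 windows with it, beside 16.3% of all windows. GGGCGG was in 5 of the 7 windows, those of Ptbp1, Ptbp2, Mbnl2, Qk and one start of Mbnl1, beside 35.7% of all. In all, 10 motifs were searched on both strands. CCAAT was in 3 of the 7 (37.4% of all), CACGTG in 2 (7.15%), AGTTCA in 1 (14.0%), and TGCATG, the motif that RBFOX proteins bind in RNA, in 1, that of Mbnl3 (11% of all). No window held CAGGTG (20.2% of all), GATAAG (7.44%), TGACGTCA (1.79%) or ATTTGCAT (1.74%). A match describes these letters only and is not a binding site.

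A wider list of 30 tissue-restricted splicing regulators, partners and paralogues of the members was tested in the same fit. Of the 29 with a count, 6 were DEGs higher in Day4 (Khdrbs2, Rbfox3, Rbm11, Celf2, Msi1 and Rbm24), 4 were DEGs lower (Rbm47, Rbpms2, Celf6 and Celf5) and 19 were not DEGs, with a median log2 fold change of 0.22. Over all genes tested, 22.2% were DEGs higher and 20.6% lower, so the list does not stand above the background in either direction. The highest were Khdrbs2 (4.27, standard error 0.39), the brain paralogue of Khdrbs3, then Rbfox3 (2.80, standard error 0.16), the neuronal paralogue of Rbfox2, and Rbm11 (2.12, standard error 0.21). Khdrbs2 rose from 4 and 3 counts to 67 and 109, so that its fold change rests on very few counts in Undiff. Rbfox3 rose from 54.2 and 39.5 to 325 and 336 normalized counts, without overlap.

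The lowest were Rbm47 (-4.08, standard error 0.11), an RNA-binding protein of endoderm and epithelia, Rbpms2 (-3.67, standard error 0.06) and Celf6 (-2.91, standard error 0.54). Rbpms2 fell from 8915 and 9170 to 682 and 732 normalized counts. Its paralogue Rbpms, with 7596 and 7476 in Undiff and 10898 and 10938 in Day4, passed the test upwards without being a DEG. The other Ptbp and Khdrbs paralogues, Ptbp3 (0.59) and Khdrbs1 (0.62), passed the test upwards and were not DEGs. Matr3 (0.02, adjusted p = 0.81) and Raver1 (adjusted p = 0.98), which encode cofactors of PTBP1, did not pass the test, whereas Raver2, which encodes another, passed upwards without being a DEG (0.22, adjusted p = 0.0080).

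**Figure D5:**
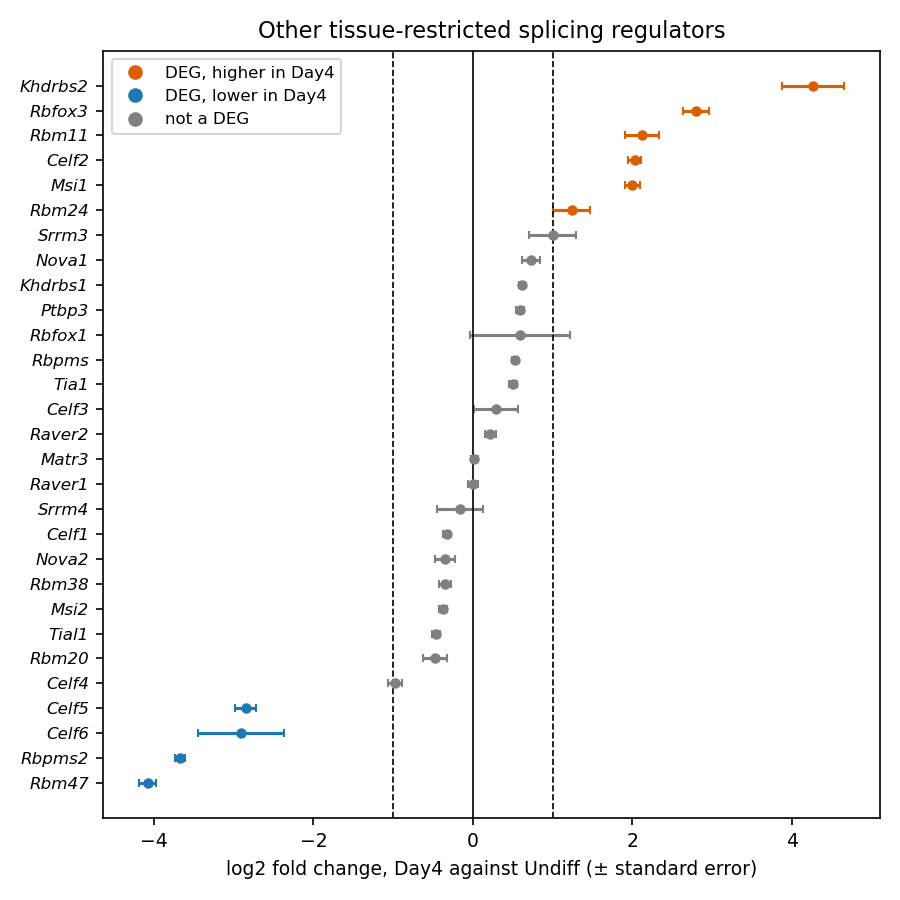
Log2 fold change of Day4 against Undiff for the 29 other regulators with a count, with bars of 1 standard error from edgeR and dashed lines at the minimum of 1. DEGs higher in Day4 are orange (6), DEGs lower are blue (4) and the other genes are grey (19).

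Neuronal RNA-binding genes moved both ways. Of 14, which overlap the wider list, 2 (Khdrbs2 and Rbfox3) were DEGs higher in Day4 and 4 (Elavl3, Celf6, Celf5 and Elavl2) were DEGs lower, beside the same 22.2% and 20.6% of all genes, with a median of -0.26. Elavl3, a neuronal RNA stability factor, fell from 745 and 689 to 16.7 and 10.7 normalized counts. The summed level of the list was between 122 and 133 CPM in Undiff and between 57.4 and 58.0 CPM in Day4.

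A list of 16 genes in which a member is known to control an alternative exon was counted at the gene level, which does not show the exon. Of these, 7 were DEGs higher in Day4 (Nrxn3, Dlg4, Nrxn2, Foxp1 and Fgfr2 among them), 2 were DEGs lower and 7 were not DEGs, beside 22.2% and 20.6% of all genes, with a median log2 fold change of 0.92. Dlg4, the postsynaptic scaffold gene with an exon repressed by PTBP1, rose from 673 and 640 to 3011 and 2599 normalized counts (log2 fold change 2.09, standard error 0.07). Nrxn3, a neurexin with a KHDRBS-controlled exon, had 3 and 2 counts in Undiff, at the floor of 3, and 41 and 50 in Day4, at least 12.1-fold higher.

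The DEGs that fell were Ldb3 (-3.54, standard error 0.15), a muscle gene spliced under MBNL control, and Enah (-1.79, standard error 0.04), an actin regulator with an ESRP-dependent exon. Enah had 26030 and 29059 normalized counts in Undiff and 8051 and 7881 in Day4. Of the other ESRP targets, Fgfr2 rose (1.16, standard error 0.06), Arhgef11 (0.86) passed the test without being a DEG, and Cd44 (0.04, adjusted p = 0.94) and Ctnnd1 (-0.01, adjusted p = 0.79) did not pass. Foxp1, with the MBNL-repressed ESC exon, rose from 4259 and 4791 to 11291 and 11461 normalized counts.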

How the data were processed

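Adapters were removed by the authors with cutadapt before alignment to mm10 (STAR 2.4.2a), and htseq-count gave the uniquely aligned fragments of each gene. What the authors deposited are raw counts per gene symbol, without normalization. Strand-specific counting is named in the methods for Direct RNA libraries only, and for the gene counts no strand option is named for TruSeq. For the exon counts of the study, the methods state that strand was not used for TruSeq. Fragments on no gene made up 12.1% and 13.2% in Undiff and 7.5% and 7.74% in Day4, and ambiguous ones between 1.84% and 1.91%, and both were left out. The part of this difference between the states in the results was not tested.

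Groups came from the sample titles. The 19891 genes with a count entered a quasi-likelihood test (TMM scaling, glmQLFit and glmQLFTest of edgeR 4.0.16, R 4.3.3), with Benjamini-Hochberg adjustment over all of them. Normalized counts are counts divided by the effective library size, times the geometric mean of those sizes, and a standard error is the size of the log2 fold change divided by the square root of F. Over all genes edgeR estimated an infinite prior for the degrees of freedom, which can make p-values too small. The adjusted p printed for a gene is therefore the larger of this fit and the fit after filterByExpr (prior 23.6). Log2 fold changes and standard errors, also those in the figures, are those of the fit over all genes. The standard errors can thus be too small for the same reason. Replicates were grown separately according to the methods, and p-values rest on 2 libraries per state. Positions, exons and lengths are those of GENCODE M21 on GRCm38, which mm10 stands for.

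All 10 members were named, and from each list the 3 highest and 3 lowest DEGs, genes in counts of 5 or fewer, and further list genes chosen after their values were seen. Some list genes that this rule names are not reported here. Members and lists were chosen with earlier results of these data known. The test was checked on simulated data in which all genes shared the same dispersion and few genes changed. That check cannot show whether the p-values of the real data are too small. Alternatives were DESeq2 1.42.0, other scalings, filterByExpr, a replicate block, thinning, a test against a fold change of 2, no minimum fold change, coding length, and leaving out each library. Floors cover counting error only. The other platforms of the study were not used here.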

Additional observations from a re-analysis of the deposited data

How the results depend on the processing

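Library totals in place of TMM, which shifted the median log2 fold change by 0.07, gave 5 members as DEGs higher in Day4 and 1 lower, in place of 3 and 2. The test against a fold change of 2 gave 1 lower. In the wider list and in the neuronal list, 5 genes were DEGs lower in place of 4 under some settings. These were DESeq2, its size factors and filterByExpr. Celf4, a gene of both lists, was at -0.98 in the main fit, just under the minimum. With no minimum fold change, 6 members passed upwards, as did 13 of the wider regulator list, 11 of the target list and 4 of the neuronal list, with 11 of the wider and 7 of the neuronal list downwards, beside 36.9% of all genes upwards and 35.5% downwards. Leaving out each library in turn gave between 3 and 4 members higher and between 1 and 2 lower, and the log2 fold change of Ptbp1 was between -0.00013, without Day4 replicate 2, and 0.08, without Undiff replicate 2. A lone library left in a state is assumed to vary like the pair of the other state. With coding length, 5 of the 10 members kept their place in the order of levels in Undiff and 0 in Day4. The cause of these changes was not tested, except that scaling and length act by construction.

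With the replicate block, 3 members were DEGs higher and 2 lower, and it changed no call of a member or count of a list. Same-numbered replicates did not deviate together (correlation over genes -0.01). With a single difference between replicates in each state, this cannot show whether same-numbered samples shared a culture or library run. The adjusted p of members other than Ptbp1 stayed at or under 0.030 over the 11 alternatives that test against no change. Apart from Khdrbs3, it was highest after thinning to the smallest total, for example 7.8e-05 for Mbnl2 and 0.0027 for Esrp2.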
